A study of Mus musculus with 11 samples.

Results

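The 10 genes of MHC class II presentation described here are H2-Aa, H2-Ab1 and H2-Eb1, which encode the classical chains, the invariant chain gene Cd74, the transactivator gene Ciita, and the peptide-exchange genes H2-DMa, H2-DMb1, H2-DMb2, H2-Oa and H2-Ob. They were taken by gene name, with earlier results of these data known, and are 10 of the 56691 genes in the deposited count table. All 10 had enough counts to enter every test.

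The libraries were made from thymic epithelium of NOD mice that were 4 to 8 weeks old, with cells sorted as EpCAM-positive and CD45-negative after bead depletion of CD45-positive cells. NOD is an inbred strain that develops autoimmune diabetes. Mice carried 2 normal copies of Aire (WT/WT, 3 libraries), 1 copy of R249C, a missense change in the SAND domain (WT/R249C, 5 libraries) or 2 copies of it (R249C/R249C, 3 libraries). No agent was given, and nothing in the labels says how many mice a library pools, so the spread between libraries may be partly technical. Of the 2 batches in the labels, A has 3 libraries of each mutant genotype beside 1 from WT/WT mice, and B has 2 from WT/WT and 2 from WT/R249C mice. WT/R249C replicates 4 and 5, the batch B mutants, carry that genotype in their titles and R249C/R249C in their genotype field. They were grouped by title, and the results without them are given where they differ.

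A class II molecule is a pair of an alpha and a beta chain that is assembled in the endoplasmic reticulum with the invariant chain. The invariant chain fills the groove and carries the pair to endosomes, where proteases trim it and the DM heterodimer exchanges the remaining fragment for other peptides, while the DO heterodimer restrains DM. Thymic epithelium uses this route to show self peptides to developing CD4 T cells: cortical cells for positive selection, and medullary cells, in which Aire drives tissue-restricted genes, for tolerance. Ciita encodes the coactivator that docks on factors bound to a conserved set of promoter elements, the X and Y boxes, of most class II genes.

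Those shared elements are shown here from the RefSeq promoters of build GRCm38.p6, a C57BL/6J reference, so that the NOD sequence itself was not read. Promoters were found for 7 of the 10 genes, 8 in all because H2-DMa had 2; those of H2-Ab1, Cd74 and Ciita are named only. The 130 bases that end just before the annotated start are printed 5′ to 3′ on the gene's own strand, in lower case, with an X box match (AAC, any 2 bases, then ATGATG) and a Y box match (TGATTGG, an inverted CCAAT) in capitals.
H2-Eb1, chr17:34305737-34305866, + strand: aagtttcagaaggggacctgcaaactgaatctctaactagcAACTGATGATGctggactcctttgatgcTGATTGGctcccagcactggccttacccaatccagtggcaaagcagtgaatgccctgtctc
H2-Aa, chr17:34287824-34287953, - strand: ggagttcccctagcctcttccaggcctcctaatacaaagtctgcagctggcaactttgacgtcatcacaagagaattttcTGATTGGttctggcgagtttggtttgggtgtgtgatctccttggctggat
H2-DMb1, chr17:34153061-34153190, + strand: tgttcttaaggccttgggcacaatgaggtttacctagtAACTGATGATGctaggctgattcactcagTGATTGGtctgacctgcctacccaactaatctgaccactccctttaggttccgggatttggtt
H2-DMb2, chr17:34145119-34145248, + strand: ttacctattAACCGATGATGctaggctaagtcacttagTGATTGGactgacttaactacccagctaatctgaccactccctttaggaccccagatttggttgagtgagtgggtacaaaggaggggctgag
H2-Oa, chr17:34092249-34092378, + strand: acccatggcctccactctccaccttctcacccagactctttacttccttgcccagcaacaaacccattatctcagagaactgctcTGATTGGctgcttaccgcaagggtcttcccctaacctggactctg
H2-Ob, chr17:34238775-34238904, + strand: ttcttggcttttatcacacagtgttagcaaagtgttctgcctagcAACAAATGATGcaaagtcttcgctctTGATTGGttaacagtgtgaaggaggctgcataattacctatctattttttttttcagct
Both boxes lie in the same order, X box before Y box, in the promoters of H2-Eb1, H2-DMb1, H2-DMb2 and H2-Ob. The Y box begins 61 bases before the start in H2-Eb1, 63 in H2-DMb1, 92 in H2-DMb2 and 59 in H2-Ob. H2-Aa and H2-Oa hold the Y box letters alone, 50 and 45 bases before the start, and neither string was found in the 2 H2-DMa promoters. Only these exact letters were searched, so a promoter without them is not shown to lack the box. The search covered both strands of the whole 300-base promoters and the motifs do not overlap. Of 32841 mouse promoters, 7.82% hold TGATTGG and 0.137% hold the X box letters. The letters searched were chosen after reading these promoters, so the count of matches among them is a description only.

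Levels are given as CPM (counts scaled by the library total), and levels of different genes are compared only after division by exon length (CPM per kb, exon lengths from GENCODE M21). The libraries held 60560348 to 182319976 counts each, WT/R249C replicate 3 being the shallowest. Epcam, the epithelial sort marker, ran from 355.0 to 520.5 CPM, and Ptprc, the gene for CD45, from 0.217 to 26.2 CPM. Of the 8 B cell markers, Cd22 was under 1 CPM in every library and Ms4a1 and Cd22 were at 0 in at least 6 libraries. Summed over the list, B cell markers ran from 79.2 to 114.5 CPM in WT/WT, 24.0 to 221.2 in WT/R249C and 44.8 to 105.8 in R249C/R249C, and Fcer2a held 69.2% of that sum. Of the 13 myeloid and dendritic markers, Xcr1 was under 1 CPM everywhere and Clec9a, Cd209a, Siglech and Fcgr1 were at 0 in at least 6 libraries. That list summed to 105.8 to 333.9 CPM in WT/WT, 81.1 to 286.6 in WT/R249C and 94.6 to 264.3 in R249C/R249C, of which Lyz2 held 74.8%. B cells and dendritic cells also express class II genes, and their part in the levels below was not tested. Aire itself, whose variant is a missense change that the counts cannot check, had a mean level of 490.5 ± 243.9 CPM for WT/WT (SD, n = 3), 518.0 ± 228.1 CPM for WT/R249C (n = 5) and 603.2 ± 271.5 CPM for R249C/R249C (n = 3).

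Cd74 had the highest count of any gene in all 11 libraries. It made up 1.83% to 2.93% of all counts, and the 10 genes together made up 2.78% to 4.16%. Per exon length, the order by the median over libraries was Cd74 at 12515 CPM per kb, H2-Ab1 at 2435, H2-Eb1 at 594.7, H2-DMb2 at 527.7, H2-Aa at 484.9, H2-DMb1 at 140.1, H2-DMa at 89.1, H2-Oa at 37.2, Ciita at 33.5 and H2-Ob at 12.4. The lowest Cd74 library, at 10913 CPM per kb, stood above the highest H2-Ab1 library at 2768, and the lowest H2-Ab1 library at 2113 stood above every library of the members other than Cd74. H2-Eb1, H2-DMb2 and H2-Aa spanned 246.1 to 835.6, 381.1 to 692.5 and 334.0 to 592.4 CPM per kb, so their order is within the spread between libraries. H2-DMb1 at 110.6 to 165.2 and H2-DMa at 71.6 to 112.6 overlapped narrowly, and H2-Oa at 23.6 to 72.6 overlapped Ciita at 22.7 to 43.5.

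**Figure D1:**
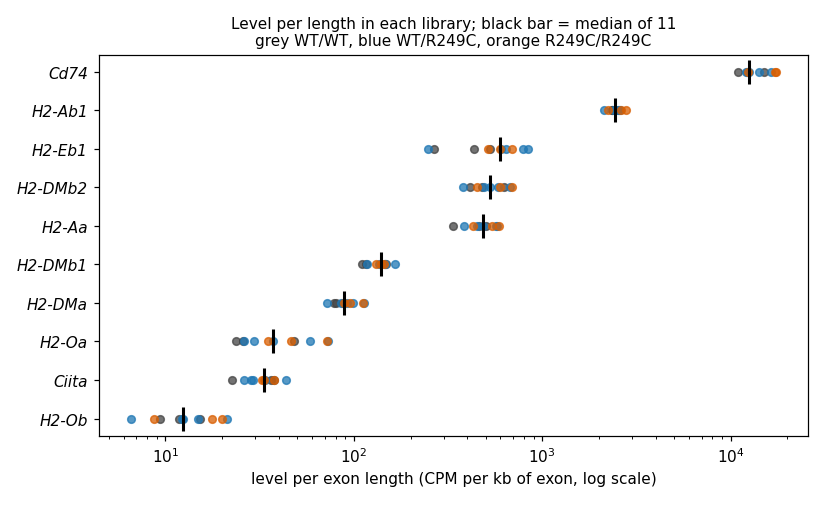
Level of each class II gene in the 11 libraries, in CPM per kb of exon on a log axis. Each point is 1 library coloured by genotype, and the black bar is the median of 11. Cd74 lies to the right of all the others, H2-Ab1 comes next, and Ciita, H2-Oa and H2-Ob lie lowest.

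The invariant chain gene Cd74 was at 18322, 20846 and 25115 CPM in the WT/WT libraries. It was at 23587, 21013, 20607, 27441 and 20339 CPM in WT/R249C, and at 29279, 20835 and 28729 CPM in R249C/R249C. The 2 highest libraries were R249C/R249C, but the other R249C/R249C library lay below the WT/WT median of 20846 CPM, so the groups overlapped.

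H2-Ab1, the classical beta chain gene, was the steadiest member, with a coefficient of variation of 7.6% over the 11 libraries. Its levels were 6048, 6024 and 6486 CPM in WT/WT, 6546, 5426, 6252, 6661 and 6161 CPM in WT/R249C, and 6747, 5759 and 7109 CPM in R249C/R249C. Its partner H2-Aa was at 1268, 1744 and 1904 CPM in WT/WT, at 2161, 1717, 1464, 2190 and 1842 CPM in WT/R249C, and at 2046, 1627 and 2250 CPM in R249C/R249C. WT/WT replicate 1 and WT/R249C replicate 3 were the 2 lowest libraries for H2-Aa, both from batch A, while neither was the lowest for H2-Ab1.

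H2-Eb1, which encodes the beta chain of the second classical molecule, I-E, varied more, with a coefficient of variation of 33.9%. It was at 518.2, 846.2 and 1021.6 CPM in WT/WT, at 1624.4, 1170.5, 478.5, 1528.0 and 1253.8 CPM in WT/R249C, and at 1002.5, 1156.0 and 1349.8 CPM in R249C/R249C. WT/R249C replicate 3 and WT/WT replicate 1 were again the 2 lowest. The gene of its alpha chain partner, H2-Ea, is known to be silenced by a promoter deletion in NOD as in C57BL mice. H2-Ea was at 0 in 3 libraries, where a count of 0 allows up to 0.0243 to 0.0495 CPM by counting error alone, and at most 1.89 CPM elsewhere. H2-Eb2, a beta chain gene beside H2-Eb1, ran from 26.3 to 150.3 CPM.

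**Figure D2:**
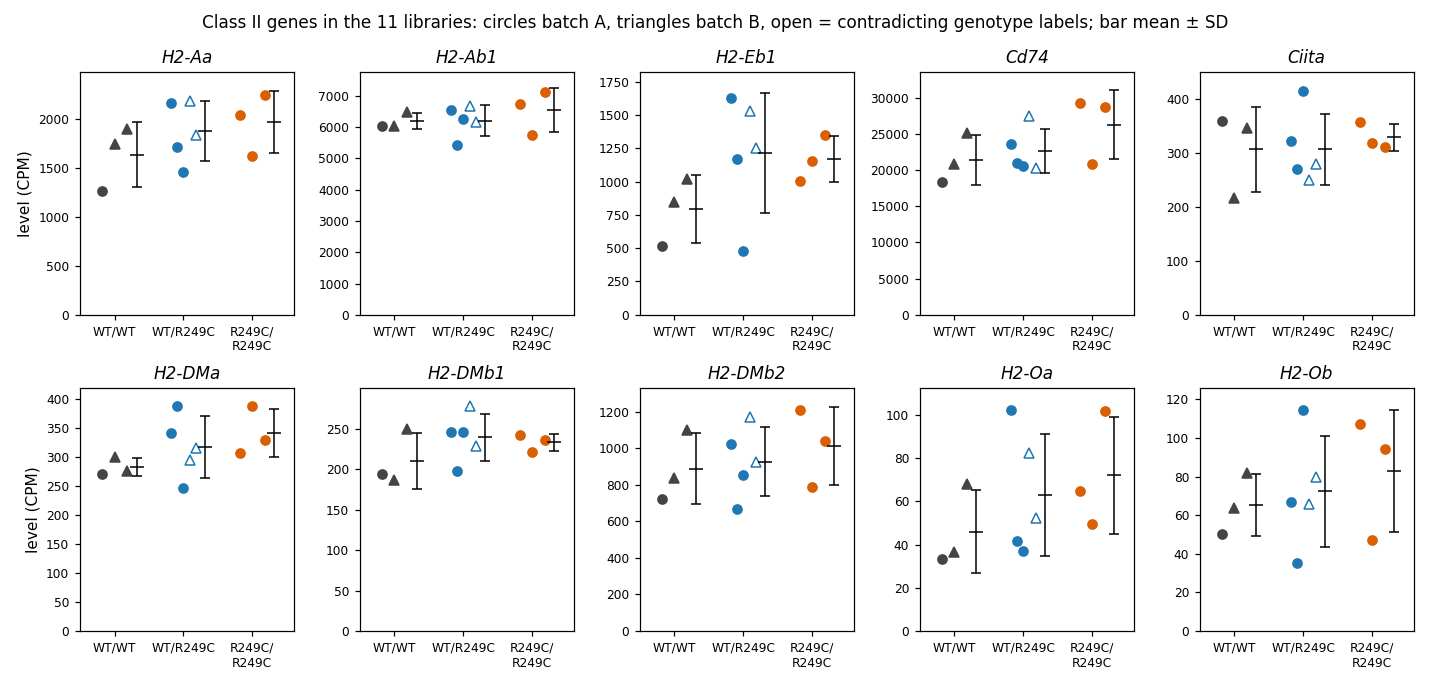
CPM of the 10 class II genes by Aire genotype, each panel with its own axis from 0. Points are libraries (circles batch A, triangles batch B, open triangles the 2 libraries with contradicting genotype labels), and bars are the mean and SD of each group. The groups overlap in every panel except H2-DMa, where the R249C/R249C libraries lie above the WT/WT libraries.

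Ciita, the transactivator gene, was at 359.9, 216.3 and 345.7 CPM in WT/WT, at 322.8, 270, 415.2, 249.8 and 279.7 CPM in WT/R249C, and at 357.6, 319.1 and 310.6 CPM in R249C/R249C. Its highest library, WT/R249C replicate 3, was the one with the lowest H2-Eb1. The annotation places the gene Dexi on the opposite strand with 3.45% of Ciita's exon bases shared, and Dexi was at 5.55 to 26.4 CPM. The sources used here do not give whether counting used the strand.

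The DM genes encode the peptide exchanger. H2-DMa, its alpha chain, was at 271.0, 300.7 and 276.5 CPM in WT/WT, at 341.9, 388.2, 247.0, 294.3 and 315.6 CPM in WT/R249C, and at 307.3, 387.8 and 329.5 CPM in R249C/R249C. Every R249C/R249C library lay above every WT/WT library, while WT/R249C spanned both. By the genotype field, which puts WT/R249C replicate 4 at 294.3 CPM among R249C/R249C, the groups would overlap. H2-DMa shares 10.4% of its exon bases with Brd2 on the opposite strand, and Brd2 was at 262.4 to 382.8 CPM, so part of the H2-DMa count is uncertain. Over the 11 libraries the 2 genes had a Pearson r of -0.638 on log2(CPM + 1). The beta chain genes H2-DMb1 and H2-DMb2 are near copies. Of the 50-base windows in the H2-DMb1 transcripts, 27.2% occur in H2-DMb2, so the split of counts between them is uncertain. H2-DMb1 was at 186.0 to 249.9 CPM in WT/WT, 197.5 to 277.8 in WT/R249C and 220.8 to 242.3 in R249C/R249C. H2-DMb2 was at 722.4 to 1100.7, 665.8 to 1171.4 and 786.6 to 1209.9 CPM in the same order. Their sum was 1097.3 ± 225.9 CPM for WT/WT, 1165.8 ± 215.8 CPM for WT/R249C and 1245.1 ± 224.0 CPM for R249C/R249C.

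H2-Oa and H2-Ob, the chains of the DM inhibitor DO, were the members with the widest spread, with coefficients of variation of 41.6% and 34.2%. H2-Oa was at 33.2, 36.5 and 68.0 CPM in WT/WT, at 102.2, 41.4, 37.0, 82.3 and 52.3 CPM in WT/R249C, and at 64.9, 49.3 and 101.6 CPM in R249C/R249C. H2-Ob was at 50.2, 63.8 and 82.0 CPM in WT/WT, at 67.0, 35.2, 114.6, 65.6 and 80.0 CPM in WT/R249C, and at 107.4, 47.0 and 94.5 CPM in R249C/R249C. WT/R249C replicate 3 held the highest H2-Ob and the third lowest H2-Oa level, and in neither gene were the genotypes separate. H2-Oa shares 22.8% of its exon bases with the antisense gene BC051537, which was at 0.406 to 4.11 CPM.

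Of the 10 class II genes, 0 passed in R249C/R249C against WT/WT, where edgeR called 0% of the 26980 genes tested at an adjusted p under 0.05. This comparison and that of WT/R249C with WT/WT came from a single model of the 11 libraries that includes batch, and they share the WT/WT libraries. The H2-Eb1 difference was the largest of the 10, a log2 fold change of 0.97 ± 0.48 (SE) with a 95% interval from -0.12 to 2.06. H2-Aa differed by 0.52 ± 0.25 and Cd74 by 0.48 ± 0.23, with unadjusted edgeR p of 0.069 and 0.070. H2-Oa differed by 0.92 ± 0.57, H2-Ob by 0.55 ± 0.49, H2-DMb2 by 0.48 ± 0.27, H2-DMb1 by 0.29 ± 0.18, H2-DMa by 0.28 ± 0.24 and H2-Ab1 by 0.16 ± 0.16, and Ciita by -0.08 ± 0.22. All 10 edgeR adjusted p were 1, and 0 of the 10 had an unadjusted p under 0.05, against 3.21% of all genes. The fitted difference was above 0 for 9 of the 10, against 49% of all genes, and the median over the 10 was 0.48, against -0.02 over all genes. That median over the 10 was 0.29 with WT/R249C replicates 4 and 5 counted as R249C/R249C and 0.31 without the batch term. With those 2 libraries left out it was 0.51, while the median over all genes rose to 0.20. In batch A alone the 2 medians were likewise 0.51 and 0.20. Members whose libraries did not overlap numbered 1 (H2-DMa, higher), against 3.42% of all genes higher and 4.68% lower. By DESeq2, 0 of the 10 passed and 3 had an unadjusted p under 0.05, against 1.63% and 7.76% of all genes.

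In WT/R249C against WT/WT, 0 of the 10 passed, with 0% of all genes called by edgeR. H2-Eb1 again had the largest difference, 0.81 ± 0.39 on the log2 scale with a 95% interval from -0.07 to 1.68 and an unadjusted edgeR p of 0.066. H2-Oa differed by 0.60 ± 0.45, H2-Aa by 0.30 ± 0.20, H2-DMb1 by 0.24 ± 0.15 and Cd74 by 0.15 ± 0.18. H2-Ab1 differed by 0.03 ± 0.13, with an interval from -0.26 to 0.32, and Ciita by -0.09 ± 0.17, with an interval from -0.48 to 0.30. All 10 adjusted p were 1, and an unadjusted p under 0.05 was seen for 0 of the 10, against 3.48% of all genes. By DESeq2, 0 of the 10 passed and 1 had an unadjusted p under 0.05, against 1.15% and 8.71% of all genes. The fitted difference was above 0 for 9 of the 10, against 51.5% of all genes, and the median over the 10 was 0.19, against 0.02. That order of the medians depended on the setting. With the batch B mutants grouped by their genotype field the medians were 0.14 and 0.04, and under the replicate block 0.46 and 0.33. With the batch B mutants left out, the median over the 10 was 0.23, below the 0.28 over all genes. In batch A alone, with 1 WT/WT library, it was 0.23, below 0.40. The 2 genotypes overlapped for all 10 genes, whereas 1.1% of all genes were higher and 1.83% lower in every WT/R249C library. The WT/R249C effect in batch B was also set against that in batch A. The log2 difference between the 2 effects ran from -0.40 ± 0.90 for H2-Eb1 to 0.16 ± 0.28 for H2-Ab1, with a median of -0.37 over all genes. It rests on 1 WT/WT library in batch A and on the 2 batch B mutants with contradicting labels. It therefore cannot show whether the batches agree.

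Between the 2 mutant genotypes, tested in the 6 mutant libraries of batch A as R249C/R249C over WT/R249C, 0 of the 10 passed, with 0% of 23695 genes called by edgeR. The differences ran from 0.02 ± 0.19 for Ciita to 0.31 ± 0.23 for Cd74 on the log2 scale, and H2-Eb1 differed by 0.10 ± 0.47. By DESeq2, 0 of the 10 passed and 0 had an unadjusted p under 0.05, against 0.157% and 2.5% of all genes, and by edgeR 0 had one, against 1.08%. All 10 fitted values were above 0, against 50.8% of all genes, with a median of 0.16 against 0.01. Without WT/R249C replicate 2 or replicate 3, 7 of the 10 were above 0 in each case, and the median ran from 0.079 (without WT/R249C replicate 3) to 0.32 (without WT/R249C replicate 1). For H2-Eb1 the value was -0.28 without WT/R249C replicate 3. The libraries of the 2 genotypes overlapped for all 10 genes, while 3.45% of all genes were higher and 5.41% lower in every R249C/R249C library.

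**Figure D3:**
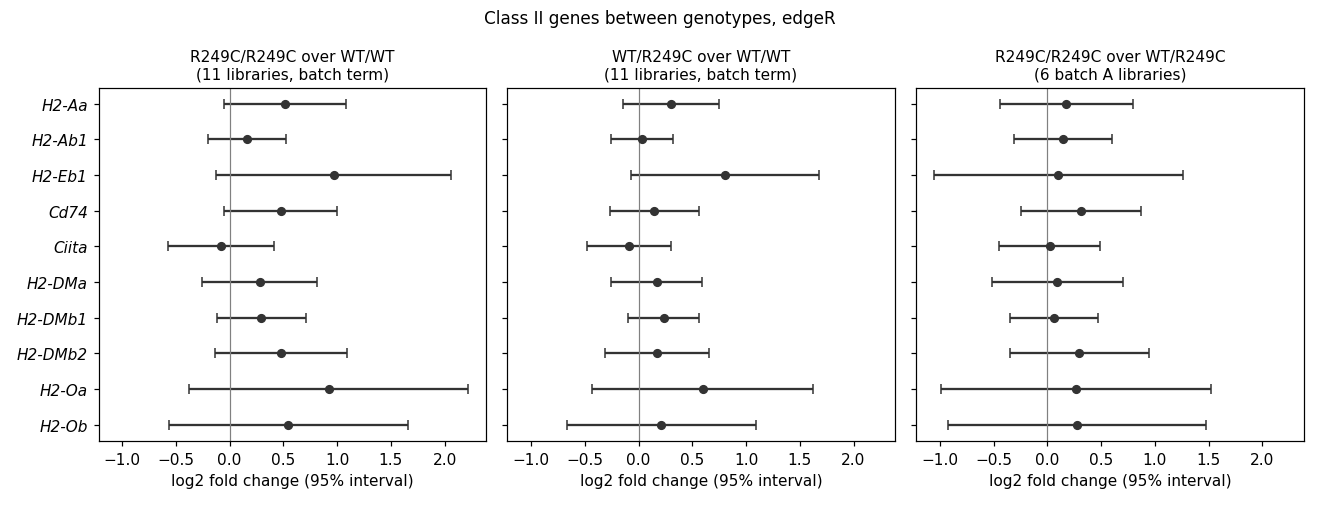
Log2 fold changes of the 10 class II genes from edgeR with 95% intervals, in 3 genotype comparisons. Those against WT/WT are adjusted for batch, and that between the mutant genotypes uses batch A libraries alone. Every interval includes 0, the widest are those of H2-Eb1, H2-Oa and H2-Ob, and those of H2-Ab1, H2-DMb1 and Ciita are among the narrowest.

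Batch B against batch A was also tested, and 0 of the 10 passed, with 0% of all genes called. Ciita was lower in batch B by -0.36 ± 0.17 on the log2 scale, with an unadjusted edgeR p of 0.062, and H2-Eb1 differed by 0.49 ± 0.37. The column names of the 7 batch A libraries carry the word trimmed and those of batch B do not, so the batches and a difference in read trimming cannot be told apart.

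Ratios within a library do not depend on scaling. H2-Eb1 counts were 0.0765 to 0.248 of H2-Ab1 counts, H2-Aa counts were 0.210 to 0.330 of them, and Cd74 counts were 3.03 to 4.34 times them. The log2 ratio of H2-Eb1 to H2-Ab1 had a mean of -3.01 ± 0.47 for WT/WT (SD, n = 3), -2.47 ± 0.70 for WT/R249C (n = 5) and -2.49 ± 0.23 for R249C/R249C (n = 3). The 5 ratios tested, which also included H2-DMa to both H2-DMb genes and H2-Oa to H2-Ob, gave 15 comparisons, of which 0 passed an exact two-sided permutation test (adjusted p of 0.6505 or more). With 3 against 3 libraries that test cannot give a p below 0.1, and with 3 against 5 none below 0.0179. After adjustment over the 15 comparisons no ratio could therefore have passed, so the 0 says nothing about the ratios.

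The other genes of the pathway were counted from lists chosen for this description. Of 7 genes for the factors that bind class II promoters (Rfx5, Rfxap and Rfxank of the RFX complex, Nfya, Nfyb and Nfyc of NF-Y, and Creb1), 0 passed in any comparison. In R249C/R249C against WT/WT, 3 of the 7 had fitted values above 0, with a median of -0.01. Rfxap averaged 2.07 ± 1.37 CPM for R249C/R249C and 6.84 ± 3.11 CPM for WT/WT. The log2 difference was -1.84 ± 0.95, with an interval from -3.99 to 0.31. Every R249C/R249C library lay below every WT/WT library, as for 4.68% of all genes. By the genotype field, WT/R249C replicates 4 and 5, at 6.14 and 10.2 CPM, would join R249C/R249C, and the groups would overlap. Rfx5 was at 41.3 ± 3.61 CPM for R249C/R249C and 48.0 ± 16.5 CPM for WT/WT.

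Of 10 genes that induce or restrain Ciita, among them the interferon-gamma receptor genes Ifngr1 and Ifngr2, 0 passed in any comparison, and 8 of the 10 were fitted above 0 in R249C/R249C against WT/WT (49% of all genes), with a median of 0.49 (-0.02 over all genes). Irf2, an interferon regulatory factor, averaged 78.7 ± 12.1 CPM for R249C/R249C and 52.1 ± 19.1 CPM for WT/WT, a log2 difference of 0.82 ± 0.31 with an unadjusted edgeR p of 0.026, where 3.21% of all genes had one under 0.05. Of 11 genes that process peptides or govern class II turnover, 0 passed in any comparison. Ctsl, the gene of cathepsin L, which cleaves the invariant chain in cortical epithelium, was at 715.4 ± 257.6 CPM in WT/R249C, 351.8 ± 65.9 in WT/WT and 456.7 ± 156.5 in R249C/R249C. Ctss, the gene of cathepsin S, which does so in antigen-presenting cells, was at 72.1 ± 40.5, 80.3 ± 46.9 and 86.5 ± 38.3 CPM in the same order.

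Marker lists of cell types in or near the sort held no gene that passed in any comparison. In R249C/R249C against WT/WT, where 49% of all genes were fitted above 0 and 3.21% had an unadjusted edgeR p under 0.05, 8 of 9 cortical epithelial markers were above 0 and 5 had such a p, with a median of 0.81. Of the 8 mature medullary markers 6 were above 0, with a median of 0.65 and 1 such p. Of 6 general epithelial markers 6 were above 0, with a median of 0.29 and 1 such p. That p belongs to Krt8, which is also in the cortical list and among its 5. Of the 12 myeloid and dendritic markers tested 10 were above 0, with a median of 1.22 and 2 such p. Those 2 were Fcgr1 and Cd209a, at means of 1.15 and 1.84 CPM in R249C/R249C and 0 in WT/WT. Their fitted log2 differences of 11.61 and 10.93 thus rest on counts near 0. The summed CPM of the list went the other way, at 181.5 ± 84.9 for R249C/R249C and 226.0 ± 114.5 for WT/WT. Below 0 were 8 of 8 B cell markers, with 1 such p, and 8 of 9 thymocyte markers, with 2. The B cell p was that of Ms4a1, at means of 0 CPM in R249C/R249C and 2.66 CPM in WT/WT. Its fitted log2 difference of -17.36 likewise rests on counts near 0. The 5 fibroblast markers had 3 above 0. In bulk libraries a change in the number of cells of a type and a change in RNA per cell cannot be told apart, and the part of cell composition in the class II values was not tested.

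Levels were then compared across the 11 libraries on log2(CPM + 1), with Ciita, Aire, the summed B cell markers and the summed myeloid and dendritic markers each set against the class II genes. This gave 39 relations, of which 5 passed after Benjamini-Hochberg adjustment of a two-sided permutation test on Pearson's r. All share the same libraries and totals. Ciita gave no passing relation on these levels. Its r with H2-Ab1 was 0.21, with H2-Ob 0.43 and with H2-Eb1 -0.48 (adjusted permutation p of 0.664, 0.321 and 0.261). Within the 7 batch A libraries its r with H2-DMa was -0.90 by an exact permutation test (p = 0.0042), against -0.38 over all 11, and its r with the B cell list was 0.95 (p = 0.0034) against 0.49. With both measures centred within each batch, both of these relations passed, at -0.70 and 0.75 (adjusted permutation p of 0.025 and 0.015). That setting passed 7 relations, of which 4 were among the 5. Without WT/R249C replicates 2 and 3, the 2 libraries farthest on the B cell list, the r of Ciita with that list fell from 0.49 to 0.17. WT/R249C replicate 3 had the highest Ciita, at 415.2 CPM, and the highest list sum, at 221.2 CPM. Of that sum Fcer2a alone was 177.9 CPM.

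Aire rose and fell with H2-Ab1 (Pearson r = 0.90, adjusted permutation p = 0.0033, Spearman rho = 0.82, adjusted p = 0.039). Without the 2 libraries farthest from the median of Aire, r was 0.82, and within batch A it was 0.91 (exact permutation p = 0.0058, n = 7). With H2-Ob the r was 0.89 (adjusted permutation p = 0.0038, rho = 0.92, adjusted p = 0.0099), and 0.75 without the 2 farthest libraries and 0.93 within batch A (exact permutation p = 0.0042, n = 7). With H2-DMb2 the r was 0.81 (adjusted permutation p = 0.022, rho = 0.73, adjusted p = 0.137), 0.60 without the 2 farthest libraries and 0.82 within batch A (exact permutation p = 0.028, n = 7). Batch B, with 4 libraries, gives no value. H2-DMb1 had an r of 0.73 with Aire (adjusted permutation p = 0.0692), which passed with values centred within batches (0.73, adjusted permutation p = 0.025). H2-Eb1 had an r of 0.06 with Aire and Cd74 one of 0.63 (adjusted permutation p of 0.926 and 0.140).

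The scaling and 1 library decided some of these calls. With TMM-scaled library sizes, r with Aire was 0.68 for H2-Ab1 and 0.75 for H2-DMb2, and neither passed (adjusted permutation p of 0.126 and 0.0687), while H2-Ob stayed past the threshold at 0.88. Without WT/R249C replicate 2, the library with the least Aire at 173.9 CPM, none of the 3 passed, with r of 0.83, 0.72 and 0.81 for H2-Ab1, H2-DMb2 and H2-Ob (adjusted permutation p of 0.0755, 0.160 and 0.0772). H2-DMb2 also missed the threshold without WT/WT replicate 3 (r = 0.79) and without WT/R249C replicates 4 and 5 (r = 0.84).

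**Figure D4:**
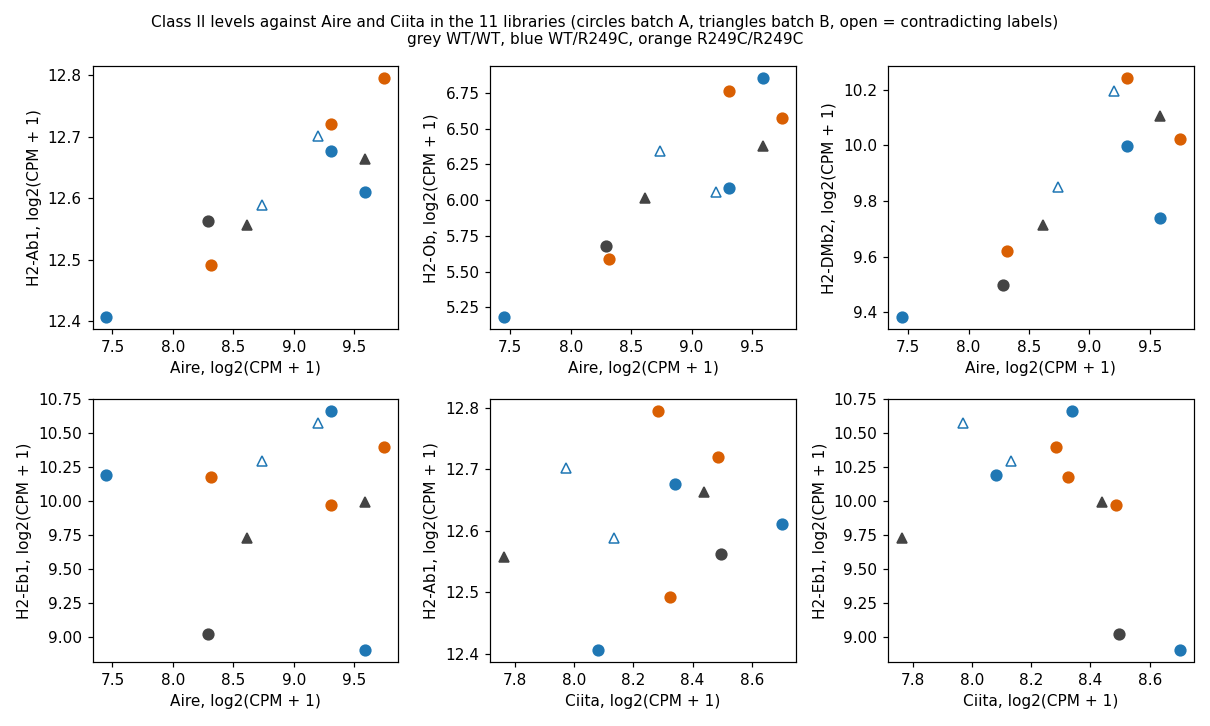
Class II levels against Aire (4 panels) and against Ciita (2 panels) in the 11 libraries, all axes log2(CPM + 1), coloured by genotype, with circles for batch A and triangles for batch B. H2-Ab1, H2-Ob and H2-DMb2 climb with Aire (r of 0.90, 0.89 and 0.81), H2-Eb1 does not follow it (r of 0.06), and the 2 Ciita panels show wide scatter.

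H2-DMa was low where the summed B cell markers were high (r = -0.91, adjusted permutation p = 0.0033, rho = -0.90, adjusted p = 0.0099). The r was -0.88 without the 2 farthest libraries, -0.92 within batch A (exact permutation p = 0.0034, n = 7), and -0.81 with Fcer2a left out of the list (adjusted permutation p = 0.022). H2-Ob had an r of 0.78 with the same list (adjusted permutation p = 0.034, rho = 0.61, adjusted p = 0.277), which fell to 0.41 without WT/R249C replicates 2 and 3, the 2 farthest libraries, and to 0.52 without Fcer2a. Within batch A it was 0.79 (exact permutation p = 0.029, n = 7). The H2-Ob relation also missed the threshold with values centred within batches (r = 0.78, adjusted permutation p = 0.0804), with TMM scaling (r = 0.76), without WT/R249C replicates 4 and 5 (0.79), and without WT/WT replicate 3 (0.77), WT/R249C replicate 2 (0.61), WT/R249C replicate 3 (0.71) or R249C/R249C replicate 2 (0.75). With the myeloid and dendritic list none passed, and the r was 0.70 for H2-Aa and 0.72 for H2-DMb2 (adjusted permutation p of 0.0814 for each). Without WT/R249C replicate 3, H2-Ob had an r of 0.80 with that list and passed (adjusted permutation p = 0.042), against 0.41 with all 11 libraries. Within batch A the r of H2-Oa with it was 0.93 by an exact permutation test (p = 0.0060, n = 7), against 0.63 over all 11.

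The class II genes also varied with one another. Over their 45 pairs, Pearson's r on log2(CPM + 1) ran from -0.60 to 0.90 with a median of 0.50, and 35 pairs were above 0, over the same 11 libraries. H2-Aa was close to H2-Oa (r = 0.90), H2-Eb1 (0.85) and Cd74 (0.85), and H2-Ab1 was close to H2-DMb2 (0.87). Ciita and H2-DMa stood apart from the other genes, with r from -0.48 to 0.43 and from -0.60 to 0.66. H2-Aa and H2-Ab1, whose products pair, had an r of 0.64, and H2-Oa and H2-Ob one of 0.32.

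**Figure D5:**
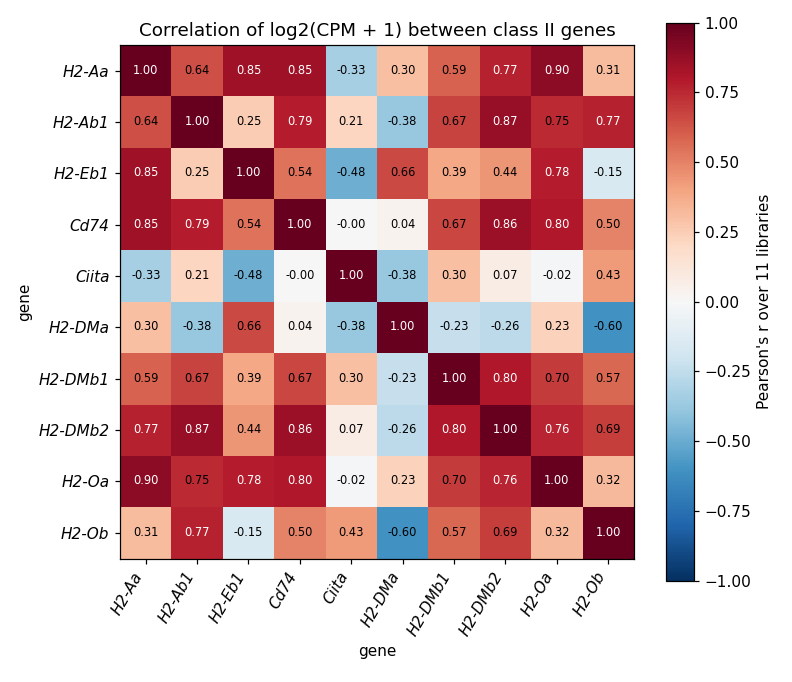
Pearson's r of log2(CPM + 1) over the 11 libraries for each pair of class II genes, red above 0 and blue below 0. Most squares outside the Ciita and H2-DMa rows are red, from 0.25 to 0.90, except H2-Eb1 with H2-Ob at -0.15.

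Among 12021 named genes at a mean of at least 5 CPM, those closest to the mean log level of H2-Aa, H2-Ab1, H2-Eb1 and Cd74 over the 11 libraries were Nfkbia (r = 0.95), Eif4a1 (0.94), Hmgb3 (0.94), Npm1 (0.94) and Gja1 (0.93). Nfkbia, which encodes the inhibitor of NF-kappa-B, ran from 323.9 to 1147.3 CPM. Those closest to Ciita were Armcx4 (r = 0.95), Pick1 (0.94), Wdr44 (0.92), Atg4c (0.92) and Galk1 (0.90), at means of 12.8 to 44.4 CPM. These are the top of a long ranking over 11 libraries and are given as a description.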

How the data were processed

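RNA was sequenced from 11 libraries of sorted thymic epithelium. The deposited values are raw whole-number counts for each Ensembl gene in each library. Reads were checked with FastQC and processed with HISAT2 and StringTie on build mm39, per the submitters' processing notes. Their versions, the annotation release, the counting step and the use of strand are not given in the sources used here. NOD class II alleles differ from the C57BL/6J reference, and the effect of this on alignment was not tested. Symbols, exon lengths (GENCODE M21) and promoters come from an older build and were matched by identifier; 52073 of 56691 genes had a symbol.

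Counts were divided by library totals (CPM). Genotypes were compared by edgeR 4.0.16 in R 4.3.3 (robust quasi-likelihood fit, TMM, filterByExpr, two-sided), with a threshold of 0.05 on the p adjusted by Benjamini-Hochberg over all genes tested. It was tested on simulated data. DESeq2 1.42.0 and limma 3.58.1 (voom) were alternatives, with other scalings, filters, batch and label treatments and each library left out. Marker lists without Fcer2a and Lyz2, and leaving out WT/R249C replicates 2 and 3, were added after seeing the data. Relations used 100000 resamples. Floors of 3 counts cover counting error only.

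The members and lists were chosen with earlier results of these data known. Named genes are the members, Aire, up to 4 genes per list and comparison of smallest p with the first 2 of the list, and the 5 genes closest to the chains and to Ciita. Overlapping genes, the genes at or near 0 and Epcam, Ptprc, Fcer2a and Lyz2 were named after their values were seen. The values of 1 list gene are not reported here.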

Additional observations from a re-analysis of the deposited data

Results flagged for a closer look

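Of 15 class II levels and ratios examined over the 5 WT/R249C libraries, 2 had a library far from the other 4, WT/R249C replicate 3 in both. Its log2 ratio of H2-Aa to H2-Ab1 was -2.09, against -1.74 to -1.60 in the other 4 WT/R249C libraries. Its log2 ratio of H2-Eb1 to H2-Ab1 was -3.71, against -2.30 to -2.01. Chance alone gives such a flag in about 1 of 20 sets. WT/WT replicate 1, also from batch A, had similar ratios of -2.25 and -3.55. WT/R249C replicate 3 was the shallowest library, and the part of depth in its ratios was not tested.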

How the results depend on the processing

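The count of class II genes called was 0 in all 3 comparisons under every scaling, filter, tool, batch and label setting and with each library left out. Over all genes edgeR also called 0, with 865, 940 and 256 genes at an unadjusted p under 0.05 in R249C/R249C against WT/WT, WT/R249C against WT/WT and R249C/R249C against WT/R249C. DESeq2 called 408, 276 and 33 genes. Ratios passing stayed at 0, which the number of libraries fixed in advance under each setting. With the replicate number of the title as a block the count of class II genes called was also 0 in each comparison. Deviations of same-numbered libraries from their group means were at most weakly related (r from -0.128 to 0.1245). Among the batch A mutants the same-numbered pairs had r of 0.1245, 0.0893 and 0.0244, and the others -0.0903 to 0.0411. The numbers were not taken as pairs, and whether they mark pairs was not settled. The block moved the median of all genes to 0.30 and 0.33 against WT/WT; batch A alone moved it to 0.20 and 0.40, and leaving out the contested libraries to 0.20 and 0.28.

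Relations passing numbered 5, against 2 with TMM-scaled sizes, 3 without the contested libraries and 1 to 6 with a library left out (1 without WT/R249C replicate 2, 3 without WT/WT replicate 3). Centring within batches passed 7, of which 4 were shared, adding Aire with H2-DMb1, Ciita with H2-DMa and the B cell list with Ciita. Without WT/R249C replicates 2 and 3 together 6 passed, of which 3 were shared, adding Aire with H2-Aa (r = 0.84), Cd74 (0.87) and H2-Oa (0.85). With 1 library left out the calls gained were Aire with H2-DMb1 (without WT/WT replicate 2 or WT/R249C replicate 4) and, without WT/R249C replicate 3, Aire with H2-Oa and the myeloid list with H2-Ob. The median over the class II genes in R249C/R249C against WT/WT was 0.76 under the replicate block. Signs turned as follows among differences that had not passed, and the cause was not tested. In R249C/R249C against WT/WT, Ciita was 0.14 without the batch term and -0.17 to 0.041 with a library left out. In WT/R249C against WT/WT, H2-Ab1 was -0.0057 without a filter, -0.033 in batch A alone, -0.033 without the contested libraries, -0.050 with them as R249C/R249C, and -0.023 to 0.082 with a library left out; Ciita was -0.22 to 0.030, and H2-Ob was -0.0469 by voom. In R249C/R249C against WT/R249C, voom gave -0.20 for H2-Eb1 and -0.0905 for H2-DMa, and library totals gave -0.030 for Ciita. With a library left out the ranges there were -0.28 to 0.54 for H2-Eb1, -0.092 to 0.13 for Ciita, -0.12 to 0.26 for H2-DMa, -0.016 to 0.15 for H2-DMb1, -0.041 to 0.94 for H2-Oa and -0.039 to 0.68 for H2-Ob. The r of Aire with H2-Eb1 ran from -0.13 to 0.35.

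Of the relations that had not passed, the r of Ciita with Cd74 was 0.036 with TMM, 0.033 centred within batches, 0.107 without the contested libraries, 0.10 without WT/R249C replicates 2 and 3, and -0.18 to 0.16 with a library left out. That of Ciita with H2-Oa was 0.038, 0.104 and 0.144 with TMM, without the contested libraries and without those 2 replicates, and -0.33 to 0.20 with a library left out. With a library left out Ciita ran from -0.072 to 0.63 with H2-DMb1 and from -0.072 to 0.26 with H2-DMb2. The B cell list ran from -0.26 to 0.16 with H2-Aa (0.060 without WT/R249C replicates 2 and 3), from -0.055 to 0.29 with Cd74, and from -0.25 to 0.28 with H2-Oa (-0.018 without the contested libraries and -0.018 without Fcer2a). The myeloid list centred within batches gave 0.071 with Ciita and 0.074 with H2-DMa, and -0.51 to 0.14 with H2-DMa with a library left out.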
